A study of Danio rerio with 340 samples.

Results

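The larvae described here are RW zebrafish kept in 33 mM hydroxyurea, the highest dose of the hydroxyurea experiment, and their untreated RW controls at 0 mM. They were chosen by the strain, compound and dose in the sample labels, which gave 7 larvae at 33 mM and 4 larvae at 0 mM, together 11 of the 24 RW larvae of that experiment, and of 340 larvae in the series. The other strains of the experiment were AB, TU and PET. RW is a wild-type laboratory strain of zebrafish (Danio rerio) that was obtained from the National BioResource Project in Japan, and the labels name no transgene or mutation. Embryos that looked healthy were placed singly in wells a few hours after fertilization, stayed in the same medium until 5 days post-fertilization (dpf), and the RNA of each whole larva was read out from the 3′ ends of its transcripts (Lasy-Seq), with an index added to each larva in reverse transcription before pooling. RW larvae at 1.3 mM (6 larvae) and 6.6 mM (7 larvae), and the larvae of AB, TU and PET at 0 mM (20 larvae) and 33 mM (19 larvae), serve as comparisons below. Embryos came from pairs of adults of each strain and the number of biological replicates was given as 1. The p-values below therefore measure the spread between larvae within a strain and dose, not between repeated exposures. For the main gene tests, that spread was estimated over the hydroxyurea larvae of AB, TU, RW and PET together, not from RW larvae alone. Larvae judged representative were taken for RNA, and the labels do not say whether a given larva was malformed.

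Hydroxyurea is a small molecule that inhibits ribonucleotide reductase, the enzyme that turns ribonucleotides into the deoxyribonucleotides needed for DNA. When deoxyribonucleotides run short, replication forks stall and the replication checkpoint is engaged, and cells that are still dividing are the most exposed. In the zebrafish the days between gastrulation and 5 dpf are those in which the exocrine pancreas, the gut, the retina and the lens grow from dividing progenitors, whereas trunk muscle and the skin are laid down early. Other tissues grow in these days too, and the part of cell division in the changes below was not tested.

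The total count per larva was 1170119 to 3219574 at 0 mM and 1305108 to 4348036 at 33 mM. The mean log10 total differed by 0.045 between the doses (6.36 ± 0.20 at 0 mM and 6.40 ± 0.18 at 33 mM, SD, n = 4 and 7, exact permutation test, two-sided, p = 0.715). With every larva thinned to 1170119 counts, 16881 to 18474 genes had a count at 0 mM and 16791 to 17687 at 33 mM (exact permutation test, two-sided, p = 0.588). Levels are given as CPM (counts scaled to a common library total) after TMM normalisation, a scaling that sets the bulk of genes equal between larvae. They are shares of the RNA of a larva and are not corrected for gene length. In the shallowest of these larvae a gene without a count could still have had up to 3 counts, or 2.56 CPM, a floor that covers counting error only. Larvae at 0 mM held the markers of a whole larva, with 84640 to 116490 CPM summed over 45 genes of fast muscle, 9816 to 17820 CPM over 31 genes of the exocrine pancreas, 11822 to 12875 CPM over 51 photoreceptor genes and 21606 to 31296 CPM over 47 epidermal genes. Since whole larvae were measured, fewer cells of a type and less RNA per cell cannot be told apart for any gene below.

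At 33 mM, 1056 of 17236 genes tested (6.13%) changed, with 378 higher (2.19%) and 678 lower (3.93%). All adjusted p-values given here are those of edgeR (quasi-likelihood F test), adjusted over these genes by the method of Benjamini and Hochberg, a change means an adjusted p under 0.05, and values after ± beside a log2 fold change are standard errors. Of the genes that changed, 236 rose and 480 fell by 2-fold or more. The larvae of the 2 doses did not overlap for 267 of the genes that rose and for 464 of those that fell. Over all genes tested, 3.06% lay above every control in all 7 treated larvae and 3.71% lay below every control. The median log2 fold change over all genes was -0.0026. With DESeq2 in place of edgeR, 1475 genes changed, 700 higher and 775 lower. The number of higher genes was 229 without control larva 4, 249 without control larva 1, 616 with RW larvae only and 575 with the 11 larvae only. Of 326 genes of the lists below that changed, 211 kept the call whichever 1 larva was left out, and 115 lost it without at least 1 of the 11 larvae.

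**Figure D1:**
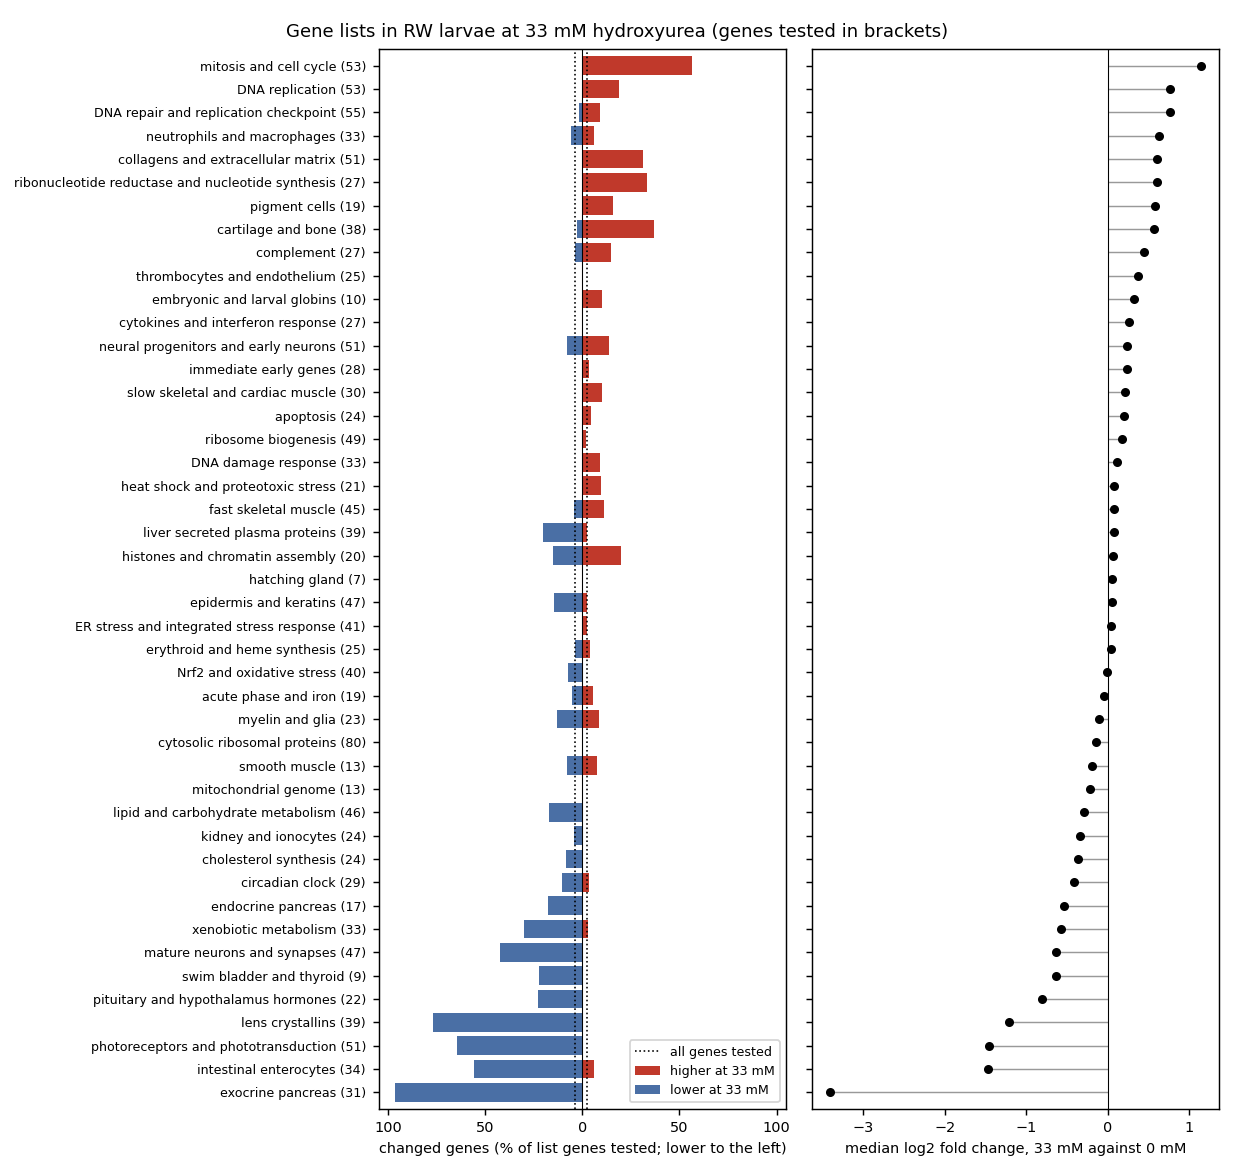
Changed genes of 45 lists of marker and pathway genes in RW larvae at 33 mM hydroxyurea against 0 mM. Left, the percentage of the list's tested genes that were higher or lower, with dotted lines at the percentages over all genes tested (2.19% higher and 3.93% lower). Right, the median log2 fold change of the list. The exocrine pancreas list stands lowest, with 30 of 31 genes lower, and the mitosis list highest, with 30 of 53 genes higher. Lists and members were chosen with earlier results of these data known, so their shares are not independent of those results.

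Both main subunits of the enzyme that hydroxyurea inhibits rose at the mRNA level. rrm2, which encodes the small subunit made in dividing cells, had 101, 90.2, 77.6 and 66.3 CPM in the 4 larvae at 0 mM. At 33 mM its lowest, median and highest levels were 204, 236 and 290.1 CPM, so that all treated larvae lay above every control. rrm2 rose 2.95-fold (log2 fold change 1.56 ± 0.18, adjusted p = 1.02e-11). rrm1, the large subunit, had 2.76, 23.7, 31.3 and 19.5 CPM at 0 mM, with the lowest value in the larva with the fewest counts. At 33 mM it had 49.2, 86.5 and 114 CPM as lowest, median and highest value, again without overlap, and rose 3.99-fold (2.00 ± 0.34, adjusted p = 5.36e-06). rrm2b, the alternative small subunit, did not pass the test (-0.80 ± 0.56, adjusted p = 0.49). Its level was 11.9 to 29.5 CPM at 0 mM. At 33 mM larvae 2, 3 and 7 had 2.26, 1.42 and 0.67 CPM and the other 4 larvae had 18.5 to 30.2 CPM. Such low levels also occurred at the lower doses, with 0.56 CPM in larva 2 at 1.3 mM and 0 CPM in larva 4 at 6.6 mM.

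Some other enzymes of nucleotide synthesis rose beside the reductase. Of 27 genes tested in this list, 9 rose and none fell, 23 had a log2 fold change above 0, and the median was 0.60. The genes that rose were rrm1, rrm2, the purine synthesis enzymes paics and atic, the mitochondrial folate enzyme mthfd1l, tyms for thymidylate, dut for removal of dUTP, the salvage kinase dck and impdh2 for guanine nucleotides. mthfd1l had 14.7 to 32.7 CPM at 0 mM and 45.8, 87.8 and 129.9 CPM as lowest, median and highest value at 33 mM (1.99 ± 0.35, adjusted p = 1.05e-05). paics had 65.3 to 117 CPM at 0 mM and 139, 279 and 575 CPM at 33 mM (1.82 ± 0.34, adjusted p = 2.81e-05). Neither gene overlapped between the doses, and the treated larvae spread over a wider range than the controls. When 1 larva was left out, the call of impdh2 was lost for 9 of the 11 larvae, that of dck for 3 and that of dut for 1. nme2b.1, a nucleoside diphosphate kinase and the gene of this list with the most counts, stood at 1071 to 1298 CPM and at 1107 to 1523 CPM (0.13 ± 0.12, adjusted p = 0.64).

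Genes of the DNA damage response list split into a few that rose strongly and many that did not pass. rps27l, a paralogue of a ribosomal protein, rose from 74.8–107 CPM to 241–439.5 CPM (1.81 ± 0.20, adjusted p = 6.54e-12). ccng1, cyclin G1, rose from 350.1–489 CPM to 760.4–1081 CPM (1.26 ± 0.14, adjusted p = 9.58e-12). mdm2, a ubiquitin ligase, rose from 8.95–24.8 CPM to 35.1–61.1 CPM (1.64 ± 0.31, adjusted p = 3.87e-05). None of these 3 genes overlapped between the doses. The other 30 of 33 genes tested did not pass, among them the pro-apoptotic genes baxa (0.36 ± 0.29, adjusted p = 0.58) and bbc3 (-0.21 ± 0.43, adjusted p = 0.87), and the median of the list was 0.11. In a separate list of apoptosis genes, 1 of 24 changed, and that gene was birc5a, survivin, which also works in mitosis.

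Of 53 DNA replication genes tested, 10 rose at 33 mM, none fell and 43 did not pass, 50 had a log2 fold change above 0, and the median was 0.76. The summed level of the list was 4532 to 5294 CPM at 0 mM and 4498 to 5447 CPM at 33 mM, so that the groups overlapped. Most of that sum was gmnn, whose levels are given below, so the sum says little about the other members. The genes that rose covered the replicative helicase and its loading (mcm10, mcm6, cdc45), the polymerase and its clamp (pola1, pcna), the single-strand binding protein rpa1, the fork protein tipin, dnmt1 for maintenance of DNA methylation, slbp for histone mRNA and the topoisomerase top2a. All of them lay above every control in each treated larva. top2a had 14.7, 14.7, 8.85 and 21.2 CPM at 0 mM and 50.6, 64.1 and 77.4 CPM as lowest, median and highest value at 33 mM (2.15 ± 0.27, adjusted p = 1.10e-09). pcna had 123 to 197 CPM at 0 mM and 204 to 337 CPM at 33 mM (0.89 ± 0.18, adjusted p = 0.00028). mcm10 had 3 counts in all at 0 mM against 128 at 33 mM, a ratio of 21.9 with a counting interval of 7.31 to 107 (adjusted p = 0.0025). Its level was 3.70 to 9.13 CPM at 33 mM, but also 0.98 to 6.14 CPM at 1.3 mM and 0 to 9.31 CPM at 6.6 mM. gmnn, the licensing inhibitor geminin and the gene with the most counts in this list, stood at 3637 to 4116 CPM and at 3107 to 3743 CPM (-0.25 ± 0.086, adjusted p = 0.064). The count of replication genes that rose was 6 without control larva 3, 16 with RW larvae alone, 17 with the 11 larvae alone and 18 with DESeq2. When 1 larva was left out, the call of tipin was lost for 10 of the 11 larvae and that of dnmt1 for 7. Those of pola1 and rpa1 were lost for 4 larvae each, and those of mcm6 and cdc45 for 1 each.

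Among 55 genes of DNA repair and the replication checkpoint, 5 rose, 1 fell and the median was 0.76. exo1, an exonuclease that resects DNA ends, rose from 4.60, 1.44, 1.02 and 1.22 CPM to 8.79 to 16.9 CPM (2.74 ± 0.66, adjusted p = 0.0023). rad51ap1, blm and brca2 of homologous recombination and xrcc6, the Ku70 subunit of end joining, made up the rest. The count of 5 was 1 without control larva 1, 2 without control larva 4 and 3 without control larva 2, without treated larva 7, without the filter on low counts or with thinned counts. mre11a, a nuclease of the double-strand break sensor, fell from 25.8, 19.04, 26.6 and 31.3 CPM to 3.54, 7.40 and 12.6 CPM as lowest, median and highest value (-1.66 ± 0.26, adjusted p = 5.55e-07), with no overlap. The histone variant gene h2ax, with the most counts of the list, stood at 36.8 to 43.5 CPM and at 29.9 to 57.9 CPM (0.10 ± 0.30, adjusted p = 0.92).

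The list with the highest median was that of mitosis and the cell cycle, at 1.14, with 30 of 53 genes higher and none lower. ccnb1, the mitotic cyclin B1, had 16.6, 17.6, 8.85 and 21.6 CPM at 0 mM and 53.4, 54.9 and 69.9 CPM as lowest, median and highest value at 33 mM (1.86 ± 0.29, adjusted p = 3.99e-07). cdk1, its kinase, had 19.1 to 36.2 CPM at 0 mM and 64.5 to 83.6 CPM at 33 mM (1.37 ± 0.22, adjusted p = 8.28e-07). All treated larvae lay above every control for ccnb1 and cdk1. The genes that rose also held the proliferation marker mki67 (2.61-fold), the mitotic kinases plk1, aurka and aurkb, the spindle factors tpx2, kif23 and cenpe, the checkpoint genes mad2l1, bub3 and ttk, and the anaphase genes cdc20 and ube2c. The G1 cyclins ccnd1 (0.82) and ccne2 (1.05) rose too, as did e2f7 and e2f8, which repress cell cycle genes. The S and G2 cyclin ccna2 (0.48 ± 0.29, adjusted p = 0.40) was among the 23 that did not pass. Between 22 and 30 of the list rose when any 1 larva was left out.

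Chromatin genes moved in both directions. Of 20 tested, 4 rose and 3 fell, with a median of 0.064. asf1ba, a histone chaperone, rose from 7.54–11.9 CPM to 29.9–42.6 CPM (1.92 ± 0.38, adjusted p = 0.00012). The architectural protein gene hmga1a rose from 486–572 CPM to 739.8–1084 CPM (0.81 ± 0.16, adjusted p = 0.00013), and h2az2b and nasp rose too. h1-10, a linker histone, fell from 146–181 CPM to 21.8–109 CPM (-1.27 ± 0.21, adjusted p = 1.59e-06), and hmgb1a and hist1h4l fell too. Many histone genes have near-identical copies and mRNAs without a poly(A) tail, so their counts are uncertain.

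**Figure D2:**
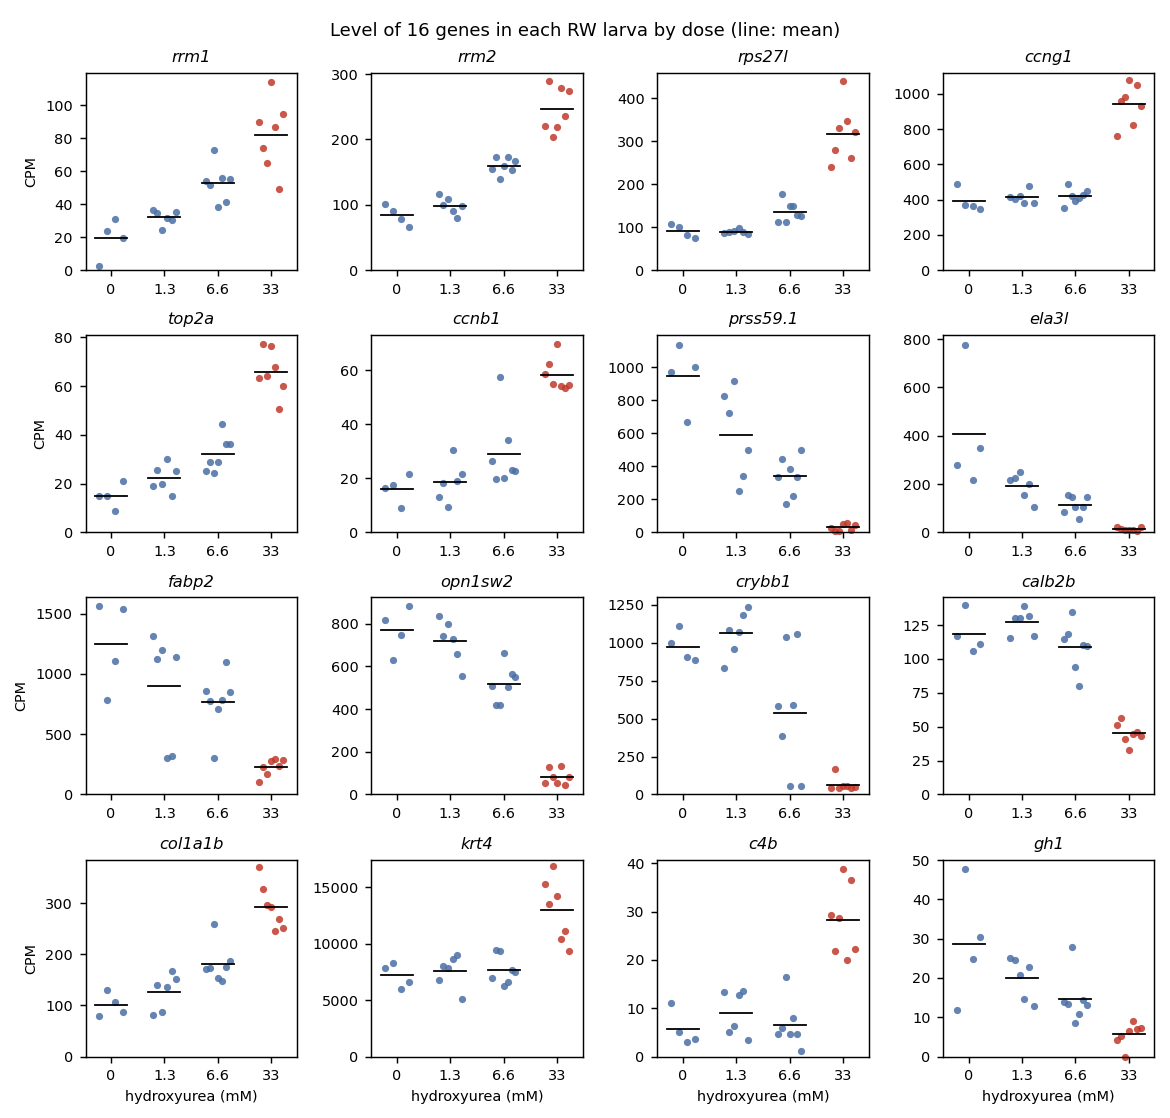
Level of 16 genes in each RW larva at 0, 1.3, 6.6 and 33 mM hydroxyurea (CPM, line at the mean). The reductase genes rrm1 and rrm2 and the damage response genes rps27l and ccng1 lie above the controls at 33 mM, and the pancreas, gut, opsin and lens genes lie below them. For crybb1 the larvae at 6.6 mM spread from 54.6 to 1055 CPM.

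The 10 genes with the largest rises among those without overlap and with a mean of at least 10 counts were BX005392.3, mcm10, bmb, BX470240.1, cxcl18a.1, exo1, si:ch211-199g17.2, si:ch211-194m7.3, si:dkey-148h10.5 and hes2.2. BX005392.3 had 3 counts in all at 0 mM and 232 at 33 mM, a ratio of 39.6 with a counting interval of 13.4 to 193. bmb, needed for fusion of nuclear compartments in cleaving zebrafish embryos, rose from 0.34–2.76 CPM to 8.33–17.3 CPM (3.55 ± 0.82, adjusted p = 0.0014). cxcl18a.1, a chemokine gene, rose from 1.08–4.60 CPM to 7.64–28.0 CPM (3.04 ± 0.71, adjusted p = 0.0016). These are low levels beside those of the lists above. The smallest rise of the 10 was that of hes2.2, a gene of the Hes family (2.45 ± 0.64, adjusted p = 0.007). The calls of BX470240.1, si:ch211-199g17.2, si:dkey-148h10.5 and hes2.2 were each lost without control larva 4.

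The list with the lowest median was that of the exocrine pancreas, whose acinar cells make the digestive enzymes. Of 31 genes tested, 30 fell, none rose and the median was -3.41. For the remaining gene, cela1.1, the log2 fold change was -2.65 ± 0.91, adjusted p = 0.064. For 29 of the 31, every treated larva lay below every control. Trypsins, elastases, chymotrypsins, carboxypeptidases, lipases, amylase and the zymogen granule protein syncollin all took part. The trypsin gene prss59.1 had 973, 1136, 669.8 and 1000 CPM at 0 mM and 9.77, 26.7 and 58.2 CPM as lowest, median and highest value at 33 mM, 30.5-fold lower (-4.93 ± 0.39, adjusted p = 1.43e-19). The elastase gene ela3l had 278, 777, 215 and 351 CPM at 0 mM and 7.02, 10.98 and 23.6 CPM at 33 mM, 29.8-fold lower (-4.90 ± 0.36, adjusted p = 2.08e-21). zgc:136461 had 316 to 543 CPM at 0 mM and 6.21 to 14.7 CPM at 33 mM, 47.4-fold lower (-5.57 ± 0.47, adjusted p = 5.81e-18). In each case the highest treated larva lay far below the lowest control.

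The most abundant enzymes fell too. prss59.2, the list's gene with the most counts, had 1849 to 2874 CPM at 0 mM and 96.4 to 654 CPM at 33 mM (-3.05 ± 0.34, adjusted p = 4.12e-12), and prss1 had 1072 to 2341 CPM and 107 to 343 CPM (-2.93 ± 0.28, adjusted p = 7.86e-15). zgc:92590 had 213 counts over the 4 controls and none in the 7 treated larvae. With a floor of 3 counts per larva it was at least 14.4-fold lower than the mean of the controls. That mean leans on control larva 2, as the controls had 5.52, 51, 7.49 and 17.5 CPM. Trypsin, elastase and chymotrypsin genes lie in families with near-identical copies, so reads may have been divided between members. When any 1 larva was left out, 30 or 31 of the list fell. Beyond the list, the 10 largest falls without overlap also held enpp7.1 (-4.93 ± 0.63, adjusted p = 1.23e-09), an alkaline sphingomyelinase gene of the gut in mammals, zgc:92137 (-4.55) and si:dkey-21e2.16 (-4.50).

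The extent of the loss differed among treated larvae. Summed over the 31 genes, the controls held 14274, 17820, 9816 and 14629 CPM. Treated larvae 4, 5 and 7 held 2243, 1953 and 1866 CPM, and larvae 1, 2, 3 and 6 held 842, 551, 701 and 624 CPM. Larvae 5 and 7 also had the most counts of the 7, larva 6 the fewest, and the part of depth in this spread was not tested.

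Of the other pancreatic cells, 3 of 17 endocrine genes fell and none rose, with a median of -0.54. pyyb, a peptide YY gene, fell from 3.06–13.8 CPM to 0–2.096 CPM (-2.88 ± 0.60, adjusted p = 0.00031). The calls of the glucagon gene gcga (-1.04 ± 0.31, adjusted p = 0.022) and the somatostatin gene sst1.1 (-1.06 ± 0.31, adjusted p = 0.02) were each lost without some single larvae, such as treated larva 6. ins, the insulin gene of beta cells, stood at 50.4 to 93.7 CPM and at 47.7 to 87.5 CPM (-0.13 ± 0.27, adjusted p = 0.87).

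Of 34 genes of enterocytes, the absorptive cells of the gut, 19 fell, 2 rose and the median was -1.47. The genes that fell covered lipid uptake (fabp2, fabp1b.1, mogat2, apoa4b.2), bile acid binding (fabp6), brush-border peptidases and transporters (anpepa, anpepb, mep1a.1, mep1a.2, slc5a1, slc6a19b), chitinases (chia.1, chia.2) and the microvillus protein vil1. fabp2, the intestinal fatty acid binding protein, had 1562, 782, 1107 and 1541 CPM at 0 mM and 103, 235 and 293 CPM as lowest, median and highest value at 33 mM, 5.45-fold lower without overlap (-2.45 ± 0.25, adjusted p = 8.79e-14). fabp6 fell from 149–272 CPM to 21.6–68.5 CPM (-2.44 ± 0.27, adjusted p = 2.00e-12). chia.1 fell from 33.0–89.9 CPM to 1.503–6.66 CPM (-3.78 ± 0.42, adjusted p = 5.96e-12). The peptide transporter gene slc15a1b rested on control larva 3, with 11.2 CPM, where the other controls had 0 to 0.81 CPM and the treated larvae 0 to 1.23 CPM, and its call was lost without that larva. The call of mep1a.2 was lost for 9 of the 11 larvae when 1 was left out, and that of slc6a19b for 8. Between 15 and 20 of the list fell when any 1 larva was left out. Some members went the other way. apobb.1, an apolipoprotein B gene, rose from 702–1180 CPM to 1536–2561 CPM (0.96 ± 0.17, adjusted p = 1.80e-05), and the alkaline phosphatase gene alpi.1 rose (1.64) while its paralogue alpi.2 fell (-1.64). apoa1b, the most abundant member, stood at 4814 to 6570 CPM and at 5118 to 7032 CPM (0.073 ± 0.13, adjusted p = 0.84).

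Of 39 genes in a list of plasma proteins and hepatocyte markers, 8 fell, 1 rose and the median was 0.07. Not every member is particular to the liver, and apobb.1, given above with the enterocyte genes, is in this list too. fabp10a, the liver fatty acid binding protein of fish, fell from 566–1021 CPM to 91.2–308 CPM (-1.91 ± 0.26, adjusted p = 1.57e-08). rbp2a, a retinol binding protein gene, fell from 531–829.9 CPM to 156–373 CPM (-1.36 ± 0.19, adjusted p = 1.54e-08), and ttr, transthyretin, fell from 46.0–70.8 CPM to 2.096–31.9 CPM (-1.82 ± 0.32, adjusted p = 1.03e-05). None of these 3 overlapped between the doses. The apolipoprotein gene apoa2 stood at 4905 to 7300 CPM and at 5431 to 7695 CPM (0.07 ± 0.14, adjusted p = 0.86). Without control larva 4 the number that fell was 5.

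Complement genes, many of them made in the liver, were higher where they changed, except for mbl2. Of 27 tested, 4 rose (c4b, cfb, c3a.1 and c9) and 1 fell, with a median of 0.44. c4b had 11.04, 5.03, 3.06 and 3.66 CPM at 0 mM and 20.0, 28.7 and 38.9 CPM as lowest, median and highest value at 33 mM, 5.38-fold higher without overlap (2.43 ± 0.53, adjusted p = 0.00054). c3a.1 rose from 62.3–88.4 CPM to 114–213 CPM (1.15 ± 0.29, adjusted p = 0.0039). mbl2, mannose-binding lectin, fell from 17.7–35.6 CPM to 2.26–8.79 CPM (-1.82 ± 0.36, adjusted p = 0.0001). Of 19 acute phase and iron genes, irg1l rose and crp2 fell.

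Genes of detoxification and of energy metabolism were lower where they changed, except for cyp2aa4. Of 33 xenobiotic genes, 10 fell and 1 rose, with a median of -0.57. cyp2n13 fell from 10.1–52.1 CPM to 0.38–4.44 CPM (-3.47 ± 0.53, adjusted p = 2.69e-07), and cyp3a65, a drug-metabolising cytochrome of liver and gut, from 28.4–56.9 CPM to 1.503–10.48 CPM (-2.40 ± 0.38, adjusted p = 9.35e-07). The conjugating enzyme gene ugt1a1 fell from 122–138 CPM to 36.8–67.0 CPM (-1.26 ± 0.21, adjusted p = 4.92e-06). cyp2n13, cyp3a65 and ugt1a1 lay below every control in each treated larva. Of 46 genes of lipid and carbohydrate metabolism, 8 fell and none rose (median -0.29), among them the glucose-6-phosphatase gene g6pca.2 (-1.27 ± 0.25, adjusted p = 0.0001), the pyruvate dehydrogenase kinase gene pdk2b (-2.03 ± 0.42, adjusted p = 0.00023) and enolase eno1a (-0.66 ± 0.14, adjusted p = 0.00025). Of 24 cholesterol synthesis genes, msmo1 and ldlra fell and none rose.

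In the eye, photoreceptor genes fell together. Of 51 genes of photoreceptors and phototransduction, 33 fell, none rose, 49 had a log2 fold change below 0, and the median was -1.46. opn1sw2, the blue cone opsin, had 818, 631, 748 and 882 CPM at 0 mM and 46.3, 83.2 and 132 CPM as lowest, median and highest value at 33 mM, 9.17-fold lower (-3.20 ± 0.27, adjusted p = 5.81e-18). opn1mw1, a green cone opsin, had 1011 to 1311 CPM and 65.0 to 299.5 CPM, 6.70-fold lower (-2.74 ± 0.24, adjusted p = 4.95e-17). opn1sw1, the ultraviolet cone opsin, had 1467 to 2251 CPM and 144 to 556 CPM, 5.27-fold lower (-2.40 ± 0.25, adjusted p = 1.35e-13). The rod opsin rho fell 3.64-fold (-1.87 ± 0.26, adjusted p = 1.97e-08) and the red cone opsin opn1lw2 fell 2.58-fold (-1.37 ± 0.22, adjusted p = 1.25e-06). None of opn1sw2, opn1mw1, opn1sw1, rho and opn1lw2 overlapped between the doses. The differences in size between opsins were not tested, and tandem copies of the green and red opsins may share reads.

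The cascade behind the opsins fell with them. gnat2, the cone transducin alpha subunit, had 503, 487, 477 and 535 CPM at 0 mM and 38.3, 109.8 and 189 CPM as lowest, median and highest value at 33 mM (-2.04 ± 0.22, adjusted p = 1.11e-12), and its rod counterpart gnat1 fell too (-2.06 ± 0.25, adjusted p = 8.23e-11). The phosphodiesterase genes pde6c, pde6ha, pde6a and pde6b, the opsin kinases grk1b, grk7a and grk7b, the arrestins arr3b, saga and sagb, the disc rim genes prph2a, prph2b and rom1a, and rbp3, which carries retinoids between photoreceptors and their neighbours, fell. gngt2b, a transducin gamma subunit and the member with the most counts, fell from 1860–2345 CPM to 201–914 CPM (-1.85 ± 0.23, adjusted p = 2.09e-10). The paralogue gngt2a (-0.0038 ± 0.31, adjusted p = 1.00), the cone arrestin arr3a (-0.34 ± 0.20, adjusted p = 0.40) and the photoreceptor transcription factor crx (0.54 ± 0.39, adjusted p = 0.52) did not pass. Treated larva 1 had the lowest sum over the list, 1763 CPM, and larva 2 the highest, 5248 CPM.

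Lens genes fell as a group. Of 39 crystallin and lens fibre genes, 30 fell, none rose and the median was -1.22. crybb1, a beta-crystallin, had 997, 1109, 907 and 885 CPM at 0 mM. At 33 mM 6 larvae had 40.7 to 53.7 CPM and larva 2 had 169.5 CPM, together 14.9-fold lower (-3.90 ± 0.45, adjusted p = 1.48e-11). The beta-crystallins crybb1l1 (-3.45 ± 0.40, adjusted p = 3.90e-11) and cryba1b (-2.68 ± 0.34, adjusted p = 5.24e-10), the lens filament gene bfsp2 (-3.32 ± 0.46, adjusted p = 1.45e-08) and the lens water channel gene mipa (-2.54 ± 0.49, adjusted p = 7.47e-05) fell too. crygm2d1, of a cluster of gamma-crystallins, fell from 1104–1422 CPM to 499.9–688 CPM (-1.06 ± 0.18, adjusted p = 5.39e-06). crygn2, the lens gene with the most counts, fell from 1268–1604 CPM to 523–624 CPM (-1.27 ± 0.18, adjusted p = 4.60e-08). None of crybb1, crygm2d1 and crygn2 overlapped between the doses, but the gamma-crystallin genes are near-identical copies whose reads cannot be assigned with certainty. The alpha-crystallin cryaa did not pass (-1.32 ± 0.45, adjusted p = 0.062).

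Of 47 synaptic and neuronal genes, 20 fell, none rose, 27 did not pass and the median was -0.63. calb2b, calretinin of interneurons, had 117, 140.1, 106 and 111 CPM at 0 mM and 32.9, 44.6 and 56.7 CPM as lowest, median and highest value at 33 mM, without overlap (-1.39 ± 0.21, adjusted p = 1.96e-07). gad1b, which makes GABA, fell from 93.9–132 CPM to 35.6–74.9 CPM (-0.94 ± 0.15, adjusted p = 5.65e-07). snap25b, a vesicle fusion gene, fell from 114–209 CPM to 36.1–115 CPM, where the highest treated larva reached the lowest control (-1.22 ± 0.19, adjusted p = 8.76e-07). The vesicle genes sypa, sypb and vamp1 and the transporters slc17a6b and slc32a1 for glutamate and GABA also fell. The number that fell was 8 without control larva 3, 12 without control larva 4 and 13 without treated larva 4. Several of these genes are also expressed in the retina, and the part of the eye in their change was not tested.

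Among 51 genes of neural progenitors and early neurons, 7 rose, 4 fell and the median was 0.24. The Notch effectors her4.2, her6 and her9, the progenitor factor sox11b, the growth factor mdka, tuba1a and the replication gene pcna rose. tuba1a, a tubulin of growing axons, rose from 153–294 CPM to 341–535 CPM (0.97 ± 0.20, adjusted p = 0.00028). vsx1, a factor of retinal bipolar cells, fell from 42.7–61.6 CPM to 12.5–32.2 CPM (-1.09 ± 0.22, adjusted p = 0.00016), and pax6a, stmn1b and tuba1c fell too. The count of 7 was 3 without control larva 3 or treated larva 1, and 4 without control larva 1 or 4 or without the filter on low counts. Of 23 genes of myelin and glia, fabp7a and her4.2 rose and mbpa, mbpb and glula fell. mbpa, myelin basic protein, fell from 44.9–61.6 CPM to 14.8–30.6 CPM (-1.27 ± 0.22, adjusted p = 4.92e-06), while fabp7a, a radial glia marker, rose from 335–571 CPM to 595–884 CPM (0.88 ± 0.20, adjusted p = 0.0013).

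Of 51 collagen and extracellular matrix genes, 16 rose, none fell and the median was 0.61. Of 38 cartilage and bone genes, 14 rose, 1 fell and the median was 0.56. col1a1b, a chain of type I collagen, had 79.1, 130.4, 106 and 86.2 CPM at 0 mM and 245, 292 and 371 CPM as lowest, median and highest value at 33 mM, 2.90-fold higher (1.53 ± 0.21, adjusted p = 5.53e-09). The other chains col1a2 (1.16 ± 0.19, adjusted p = 1.15e-06) and col1a1a (0.95 ± 0.16, adjusted p = 4.09e-06) also rose, and none of the 3 overlapped between the doses. The matrix genes that rose held collagens of the basement membrane (col4a5, col4a6), the proteases mmp2 and mmp14b, and the matrix glycoproteins tnc, tnxba and postnb. In cartilage, col2a1a, the main collagen of chondrocytes, rose from 51.2–76.4 CPM to 95.9–188 CPM (1.00 ± 0.19, adjusted p = 6.56e-05), and col9a1a from 32.1–44.6 CPM to 86.4–106 CPM (1.22 ± 0.21, adjusted p = 5.61e-06). The cartilage link proteins hapln1a and hapln1b, matn4 and epyc were among the others that rose. spp1, osteopontin of bone, fell (-1.89 ± 0.54, adjusted p = 0.016). The cartilage and bone count was 9 without control larva 3. sparc, the member with the most counts, stood at 849.9 to 1177 CPM and at 900.3 to 1332 CPM (0.15 ± 0.14, adjusted p = 0.65).

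Of 45 fast muscle genes, 5 rose, 2 fell, 38 did not pass and the median was 0.079. tnnt3a, a troponin T, rose from 134–298 CPM to 267–455 CPM (0.90 ± 0.20, adjusted p = 0.00093), and pvalb1, a parvalbumin of fast fibres, fell from 10190–14360 CPM to 7625–9791 CPM (-0.46 ± 0.11, adjusted p = 0.0021), a call that was lost without control larva 2. pvalb2, the most abundant member, stood at 19300 to 27880 CPM and at 17930 to 25710 CPM (-0.02 ± 0.16, adjusted p = 0.97). The number that rose was 3 without control larva 1, 3 or 4 and 12 with DESeq2. Of 30 slow and cardiac muscle genes, actc1a, desma and mybpc3 rose and none fell, with the call of desma lost without control larva 1 or 3 or treated larva 2. The summed level of the slow and cardiac list was 1499 to 1973 CPM at 0 mM and 2169 to 2760 CPM at 33 mM, without overlap. That sum is weighted toward actc1a, among the 2 members with the most counts, at a median of 567 CPM at 0 mM and 912 CPM at 33 mM. In the slow and cardiac list 27 genes did not pass and the median log2 fold change was 0.21. The sum of the fast muscle list was 84640 to 116490 CPM and 85298 to 110320 CPM, with overlap. Of 13 smooth muscle genes myl9b rose and acta2 fell.

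In the skin, krt4, a keratin of the outer layer, had 7881, 8286, 5987 and 6594 CPM at 0 mM and 9382, 13520 and 16870 CPM as lowest, median and highest value at 33 mM (0.85 ± 0.15, adjusted p = 1.84e-05). The groups did not overlap for krt4. Of 47 epidermal genes 7 fell, 6 of them keratins, among them krt1-19d from 113–179 CPM to 42.8–108 CPM (-0.88 ± 0.19, adjusted p = 0.00046), and the mucin gene muc5.1. That count was 3 without treated larva 2 or 6 and 4 without control larva 3 or 4, with RW larvae alone or without the filter on low counts. cyt1, another keratin gene, stood at 2449 to 4723 CPM and at 2558 to 5736 CPM (0.24 ± 0.22, adjusted p = 0.63). Of 19 pigment cell genes, 3 rose, namely aox5, tyrp1b and paics, which also belongs to purine synthesis. The call of aox5 was lost without control larva 2, and that of tyrp1b without any of several larvae, control larvae 1, 3 and 4 among them.

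Hormone and rhythm genes were low where they changed, apart from aanat2. gh1, growth hormone, had 11.96, 47.8, 24.9 and 30.5 CPM at 0 mM and 0, 6.48 and 9.12 CPM as lowest, median and highest value at 33 mM, 5.12-fold lower without overlap (-2.36 ± 0.41, adjusted p = 8.12e-06). In all 5 of 22 hormone genes fell (gh1, crhb, npvf, npy and sst1.1), and without 1 larva or another this was 1 to 4, with 1 without treated larva 3 or 6. nr1d1, a clock repressor, fell from 38.6–75.6 CPM to 1.57–26.6 CPM (-2.10 ± 0.34, adjusted p = 1.68e-06). bhlhe40 (-0.72 ± 0.19, adjusted p = 0.0091) and dbpb (-1.23 ± 0.35, adjusted p = 0.017) fell as well, though both calls were lost without control larva 3. aanat2, for melatonin synthesis, rose from a median of 1.27 CPM to 6.73 CPM (1.97 ± 0.64, adjusted p = 0.044). Its call was lost for 7 of the 11 larvae when 1 was left out. nr1d1, bhlhe40, dbpb and aanat2 were the 4 of 29 clock genes that changed. The hour at which each larva was taken is not in the labels. Of 9 genes of the swim bladder and thyroid, anxa5b and the deiodinase dio1 fell. The call of anxa5b was lost without control larva 2, and that of dio1 was also lost without 1 larva. Of 24 kidney and ionocyte genes cdh17 fell.

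Of 10 globins, hbae5 rose from 4.43–10.4 CPM to 15.6–48.5 CPM (1.96 ± 0.48, adjusted p = 0.0031). Of 25 erythroid genes urod, of heme synthesis, rose and si:ch211-103n10.5 fell. urod had 1 count in all at 0 mM and 50 at 33 mM, a ratio of 25.6 with a counting interval of 4.39 to 1031. Its call was lost for 5 of the 11 larvae when 1 was left out, and that of si:ch211-103n10.5 for 6. With edgeR none of 25 genes of thrombocytes and endothelium passed, with 3 higher and 2 lower at an unadjusted p under 0.05, and DESeq2 called 0 higher and 0 lower. None of 27 cytokine and interferon genes passed either, with 2 and 1 unadjusted and 0 and 0 by DESeq2. Of 33 genes of neutrophils and macrophages, lyz, the lysozyme gene, rose from 51.4–91.1 CPM to 75.2–278 CPM (1.24 ± 0.30, adjusted p = 0.0026), and the protease gene ctss2.1 rose. In the same list grn1 and cpa5 fell, and cpa5 is also in the list of the exocrine pancreas. The other 29 genes did not pass. Of the 33 genes, 24 had a log2 fold change above 0 and 9 below 0, with a median of 0.63.

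Of 41 genes of endoplasmic reticulum stress and the integrated stress response, psat1, of serine synthesis, rose, and the median was 0.041. Of 21 heat shock genes, hsp90aa1.1 and the collagen chaperone serpinh1b rose, and of 28 immediate early genes ier2a rose. Of 40 genes of the Nrf2 and oxidative stress list, 3 fell and none rose. mt2, a metallothionein, fell from 100.2–168 CPM to 19.9–70.9 CPM (-1.72 ± 0.28, adjusted p = 2.11e-06), and gsta.1 (-1.07 ± 0.19, adjusted p = 1.31e-05) and sod1 (-0.66 ± 0.16, adjusted p = 0.002) fell too. Of 49 genes in the list of ribosome biogenesis only mki67 rose, the proliferation marker that is also in the mitosis list, and none fell. With edgeR none of 80 cytosolic ribosomal protein genes (median -0.14), of 13 mitochondrial genes (median -0.22) or of 7 hatching gland genes passed. At an unadjusted p under 0.05 these lists had 0, 0 and 0 genes higher and 10, 4 and 1 lower, and DESeq2 called 0, 0 and 0 higher and 2, 0 and 0 lower.

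**Figure D3:**
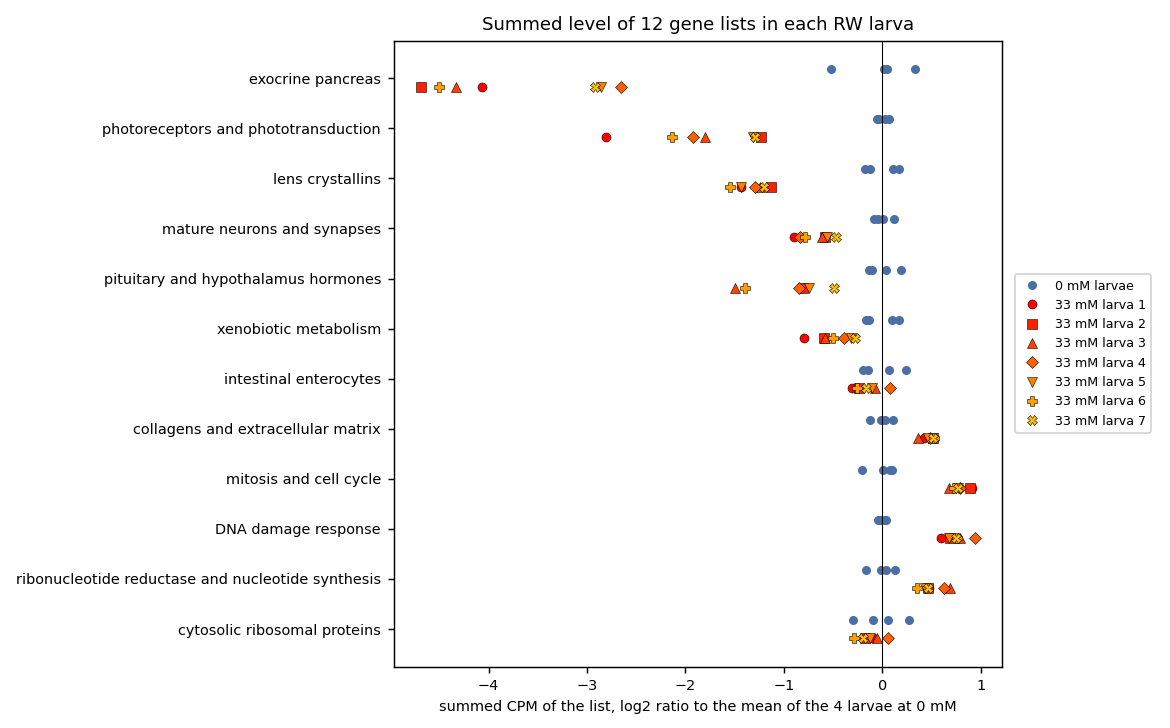
Summed CPM of 12 gene lists in each RW larva, as the log2 ratio to the mean of the 4 larvae at 0 mM. The exocrine pancreas sums of treated larvae 4, 5 and 7 lie above those of larvae 1, 2, 3 and 6, and the photoreceptor sum is lowest in larva 1.

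Across treated larvae the lists did not rank the larvae in the same order. Larva 1 had the lowest photoreceptor sum and the highest mitosis sum, 3172 CPM, where the controls had 1459 to 1809 CPM and the lowest treated larva 2689 CPM. Larva 4, with the highest pancreatic sum, had the highest sum of the DNA damage response list, 2277 CPM. The sum of that list was 1152 to 1222 CPM at 0 mM and 1796 CPM in larva 1. In larva 4, ccng1 and rps27l held most of it, at 1081 and 439.5 CPM, and 30 of the list's 33 genes did not pass. The lens sum was 7423 to 9920 CPM in treated larvae and 19216 to 24328 CPM in the controls. The collagen and matrix sum was 4009 to 4482 CPM in treated larvae and 2857 to 3362 CPM in the controls.

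At the lower doses few genes passed the test in RW larvae. The comparisons at 1.3, 6.6 and 33 mM share the same 4 controls. At 6.6 mM 10 genes changed (0.058%), 1 higher and 9 lower, and 1145 genes had an unadjusted p under 0.05. rrm2 rose, with 139, 159 and 173 CPM as lowest, median and highest value in 7 larvae (0.94 ± 0.17, adjusted p = 0.0028), above all 4 controls. Of the 9 that fell, 5 were exocrine pancreas genes (zgc:136461, ela3l, ela2, sycn.2 and cela1.3), and the others were btf3, sec61a1 of the protein channel into the endoplasmic reticulum, BX890543.1 and zgc:173552. ela3l was at 54.5 to 153 CPM at 6.6 mM (-1.85 ± 0.32, adjusted p = 0.0011). All but zgc:173552 also changed at 33 mM in the same direction. zgc:173552 rested on control larvae 3 and 4, with 3.68, 2.16, 48.4 and 47.2 CPM in the controls. The count of 10 was 3 without control larva 2, 20 without control larva 3 and 2 without control larva 4.

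Most genes named above did not pass at 6.6 mM. rrm1 was at 38.6 to 73.1 CPM (1.35 ± 0.34, adjusted p = 0.085) and opn1sw2 at 420.2 to 665 CPM (-0.57 ± 0.26, adjusted p = 0.71). crybb1 had 56.9 and 54.6 CPM in larvae 4 and 7 at 6.6 mM, near most larvae at 33 mM, and 382 to 1055 CPM in the other 5 larvae (-0.87 ± 0.43, adjusted p = 0.74). The same 2 larvae had the lowest crybb1l1 levels at that dose, 65.4 and 60.1 CPM.

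At 1.3 mM 4 genes changed (0.0232%), all higher, and 469 had an unadjusted p under 0.05. They were irg1l, the counterpart of the mammalian gene for itaconate synthesis, si:ch211-153b23.3, si:ch211-153b23.5 and zgc:174917. irg1l had 148, 93.2, 72.4, 2.93, 18.3 and 40.3 CPM in larvae 1 to 6 and 0 to 4.88 CPM at 0 mM (5.07 ± 0.70, adjusted p = 1.33e-06). Larva 4 lay within the range of the controls for irg1l. Of the 4 genes, irg1l was also higher at 33 mM (2.54 ± 0.68, adjusted p = 0.0086), at 2.11 to 19.5 CPM. Without any 1 of the 4 controls, 2 genes passed. The summed exocrine pancreas level was 11578, 11626 and 12267 CPM in larvae 1, 2 and 3 and 5480, 6235 and 6889 CPM in larvae 4, 5 and 6 at 1.3 mM, and 4585 to 8334 CPM at 6.6 mM.

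The change at 33 mM in RW was compared with the mean change in AB, TU and PET by the interaction of strain and dose. Of 17236 genes, 31 differed (0.18%), 16 with a higher and 15 with a lower change in RW. Embryos of each strain came from adults of that strain and the labels name no clutches, so strain and clutch cannot be told apart. The number was 6 without control larva 1, 11 without control larva 3 and 16 to 19 without treated larva 2, 4, 6 or 7. It was 14 with the total count as a covariate and 11 with thinned counts. Depth was uneven in the other strains. Total counts at 0 and 33 mM were 2427903 to 6597875 and 1235476 to 2965934 in TU. They were 2337627 to 4474913 and 1302754 to 3112775 in PET, and 570077 to 2127892 and 650615 to 1263588 in AB.

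**Figure D4:**
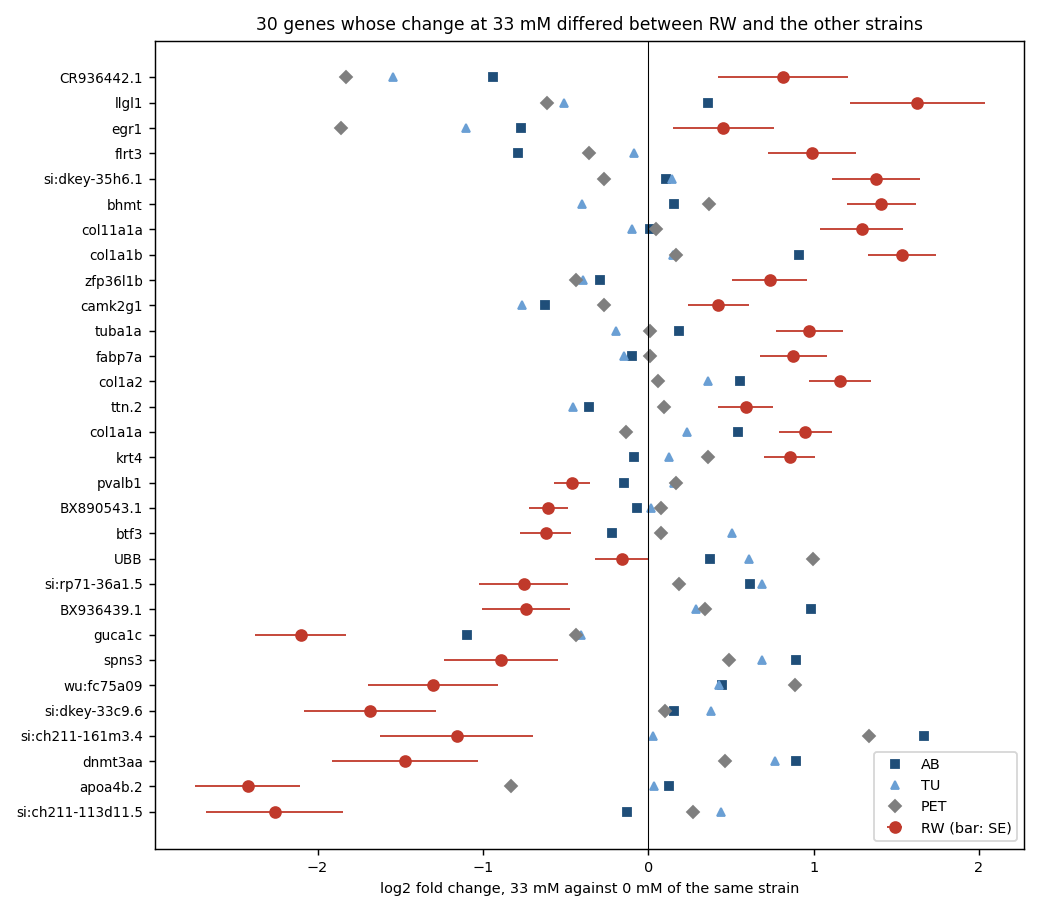
Log2 fold change at 33 mM against 0 mM of the same strain for the 30 genes (mean count of 10 or more) whose change differed between RW (bar for the SE) and the mean of AB, TU and PET. The 3 type I collagen genes, bhmt and krt4 lie to the right of the other strains in RW, and apoa4b.2, guca1c and pvalb1 lie to the left.

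apoa4b.2, an apolipoprotein gene of the gut, fell in RW from 305, 109, 233 and 347 CPM to 34.4, 42.8 and 66.1 CPM as lowest, median and highest value (-2.42 ± 0.32, adjusted p = 2.66e-09). Its log2 fold change was 0.12, 0.037 and -0.83 in AB, TU and PET, and RW differed from their mean by -2.20 ± 0.36, adjusted p = 0.0002. Reads may have been divided between it and its near-identical copies. si:ch211-113d11.5 had a more negative change in RW (-2.26 ± 0.41, adjusted p = 2.50e-05), against -0.13, 0.44 and 0.27 in AB, TU and PET (difference -2.45 ± 0.47, adjusted p = 0.0038). bhmt, which remethylates homocysteine in the liver, rose in RW from 524, 1038, 679 and 446 CPM to 1502, 1608 and 2402 CPM as lowest, median and highest value (1.41 ± 0.21, adjusted p = 1.16e-07). Its change was 0.15, -0.40 and 0.37 in the other strains (difference 1.37 ± 0.23, adjusted p = 0.00023).

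The genes of type I collagen had a more positive change in RW than in the mean of the other strains, near the threshold for col1a2 and col1a1a. The difference was 1.13 ± 0.22, adjusted p = 0.0081 for col1a1b, 0.83 ± 0.20, adjusted p = 0.049 for col1a2 and 0.73 ± 0.18, adjusted p = 0.043 for col1a1a, and col11a1a of cartilage differed by 1.30 ± 0.28, adjusted p = 0.016. krt4 (0.72 ± 0.17, adjusted p = 0.037), fabp7a (0.95 ± 0.22, adjusted p = 0.034) and tuba1a (0.97 ± 0.23, adjusted p = 0.033) also had a more positive change in RW. Without control larva 1 the adjusted p was 0.0502 for col1a1b, 0.131 for col1a2, 0.206 for col1a1a and 0.0868 for col11a1a. The call of col1a2 was lost whichever of the 11 larvae was left out, and that of col1a1a for 9 of them. For col1a1b and col11a1a this held for 1 larva each. The calls of col1a2 and col1a1a were also lost with DESeq2's size factors (adjusted p = 0.0643 for each). Those of krt4, fabp7a and tuba1a were lost without control larva 1, 3 or 4 and without some of the treated larvae. Of the 31 genes that differed between RW and the other strains, 3 kept the call whichever 1 larva was left out. egr1, an immediate early gene, stood at 12.9 to 28.9 CPM and at 18.04 to 48.2 CPM in RW (0.45 ± 0.31, adjusted p = 0.47), while its log2 fold change was -0.77, -1.10 and -1.86 in AB, TU and PET (difference 1.70 ± 0.36, adjusted p = 0.016). CR936442.1, llgl1, flrt3 and si:dkey-35h6.1 also had a more positive change in RW, and dnmt3aa, si:ch211-161m3.4 and si:dkey-33c9.6 a more negative one. Among the 10 named differences, those of apoa4b.2 and si:ch211-113d11.5 kept their call in each alternative except a minimum fold change, and the other 8, egr1 among them, lost it without 1 larva or another.

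The medians of the exocrine pancreas, mitosis and photoreceptor lists had the same sign in RW as in each of the other strains. Not every list did so. The median of the immediate early genes was 0.23 in RW and -0.13, -0.44 and -0.63 in AB, TU and PET, though 1 of its 28 genes changed in RW. The median log2 fold change of the exocrine pancreas list was -3.41 in RW, -2.05 in AB, -3.04 in TU and -4.30 in PET, and that of the mitosis list was 1.14, 0.85, 0.97 and 1.22 in the same order. For the photoreceptor list these medians were -1.46, -0.97, -1.05 and -1.63, and guca1c was the member that differed between RW and the others (-1.45 ± 0.31, adjusted p = 0.016). rrm2 changed by 1.56 in RW and by 1.47, 1.76 and 1.93 in AB, TU and PET (difference -0.16 ± 0.19, adjusted p = 0.83). A difference that did not pass does not show that the strains responded alike.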

How the data were processed

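Single 5 dpf larvae were measured by 3′ RNA-Seq. The deposited values are estimated counts per gene that the authors made from their reads. The submitters' processing notes name GRCz11 and Seurat 5.1.0, and the aligner, counter and annotation are not given in the sources used here. The 14 values that were not whole were rounded.

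Larvae were grouped by the strain, compound and dose in their titles. edgeR 4.0.16 (R 4.3.3, limma 3.58.1) was run with TMM normalisation, filterByExpr (minimum count 10, minimum total 15), 1 mean per strain and dose over the hydroxyurea larvae of all 4 strains and quasi-likelihood tests. This kept 17236 of 31658 genes. The change in RW was also tested against the mean change of AB, TU and PET. Depth was compared by exact permutation tests. The fit was tested on simulated data.

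Genes named were the reductase genes, the 10 largest changes in each direction (adjusted p under 0.05, mean count of at least 10, no overlap between doses), in lists with 3 or more changed members the 3 with the smallest p, in each list the 2 with the most counts, and the 5 largest strain differences in each direction. Further genes of the lists were named after their values were seen. Members and lists (1646 of 1706 entries matched, 17 by a synonym) were chosen with earlier results of these data known. Members of the lists that are not reported here were left out of the counts, medians and sums of their lists.

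Alternatives were DESeq2 1.42.0, its size factors in edgeR, no filter, RW larvae alone, the 11 larvae alone, a minimum fold change, the larva number as a block, total count as a covariate, thinned counts and leaving out each larva. Larva numbers did not pair the larvae. No molecular identifiers were described, so intervals cover counting error only.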

Additional observations from a re-analysis of the deposited data

Results flagged for a closer look

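In 6 of 68 groups of larvae looked at, 1 larva stood apart from the rest of its group for a named gene. The nominal rate of the rule used is about 1 in 20 groups, and its rate in these data was not measured. BX470240.1 was highest in treated larva 3 at 13.46 CPM, si:ch211-113d11.5 in treated larva 1 at 39.3 CPM and si:dkey-21e2.16 in treated larva 5 at 2.711 CPM, and si:dkey-33c9.6 was lowest in treated larva 4 at 1.388 CPM. Among the controls, exo1 was highest in larva 1 at 4.60 CPM and si:ch211-161m3.4 in larva 3 at 56.86 CPM.

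The change at 33 mM differed between RW and the mean of AB, TU and PET (interaction of strain and dose, edgeR, adjusted p under 0.05) for 10 named genes, given here as RW minus the others on the log2 scale. The difference was 2.25 for CR936442.1, 1.88 for llgl1, 1.70 for egr1, 1.399 for flrt3 and 1.38 for si:dkey-35h6.1. It was -2.45 for si:ch211-113d11.5, -2.20 for apoa4b.2, -2.18 for dnmt3aa, -2.17 for si:ch211-161m3.4 and -1.89 for si:dkey-33c9.6.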

How the results depend on the processing

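At 33 mM 140 genes passed with a minimum log2 fold change of 1, 1096 with DESeq2's size factors, 922 without the filter on low counts, 1520 with RW larvae only, 1372 with the 11 larvae only, 1078 with total count as a covariate, 919 with thinned counts, 1475 with DESeq2 and 735 to 1011 without any 1 larva. At 6.6 mM 17 passed without the filter, 20 with RW larvae only, 0 with a minimum fold change, 58 with DESeq2 and 2 to 20 without any 1 larva. At 1.3 mM 1 passed with a minimum fold change, 2 with thinned counts and 2 to 4 without any 1 larva. For the strain difference 52 passed without the filter, 0 with a minimum fold change, 14 with the covariate, 11 with thinned counts, 154 with DESeq2 and 6 to 40 without any 1 larva.

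With the larva number as a block, 1031 genes passed at 33 mM, 11 at 6.6 mM, 4 at 1.3 mM and 35 for the strain difference. Larvae sharing a number did not deviate together (correlations -0.101, -0.0537, 0.0419 and 0.0339).

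Of 120 named genes past the threshold at 33 mM, 100 kept the call in each alternative except a minimum fold change, and none reversed. The depth difference was -0.052 without control larva 1 (exact permutation p = 0.667), with 0.006057 to 0.095 without any other larva, and that of genes detected was 170.38 without control larva 3 (exact permutation p = 0.633), with -360.62 as the lowest value. The cause of these shifts was not tested. Depth limits genes near the floor of 3 counts.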
